A study of Mus musculus with 60 samples.

Results

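A set of 353 genomic regions carried an H3K27me3 peak in every independent peak list of the histone mutants H3R2C and H3R26C and in neither list of H3WT. The regions were chosen by these peak calls themselves. The 8 independent anti-H3K27me3 lists (those of H3WT and of the mutants H3R2C, H3R8C and H3R26C) were combined by joining peaks that overlapped or touched, which gave 36272 regions, and the 353 were kept by the pattern of presence and absence alone. They made up 1.69% of the 20900 consensus regions, which are regions called in both lists of at least 1 genotype. Of the 2893 regions without an H3WT peak that both H3R2C lists held, they were 12.2%, and of the 1814 such regions of H3R26C they were 19.5%. Both numbers lean on the same H3WT lists. The presence of the mark in H3R2C and H3R26C and its absence in H3WT are therefore the definition of the set and not a result.

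CUT&RUN, a method that cuts and sequences the DNA around the sites an antibody binds in chromatin, was performed in C3H 10T1/2 cells, an established line of murine mesenchymal progenitors. Every group carried a lentiviral transgene, driven by the EF1 promoter, for human H3.1 with an HA tag. The tagged histone was wild type (H3WT) or had a cysteine in place of 1 of the arginines of its tail, at residue R2 (H3R2C), R8 (H3R8C), R17 (H3R17C) or R26 (H3R26C). It was made on top of the cells' own histone H3, so each group is a mixture of tagged and endogenous protein. Each of the 5 genotypes had 3 labelled replicates per antibody, of which 2 had identical peak lists and were counted once, so that n = 2 independent lists per group. One list of H3R17C with anti-H3K27me3, that of replicate 1, went against its label (its file was named for another mark), and it is given apart. The study's methods call the CUT&RUN replicates biological, but since 2 of 3 lists were identical, the p-values below measure the spread between the lists as deposited, part of which may be technical.

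H3K27me3 is set by Polycomb repressive complex 2 (PRC2) and marks silenced chromatin, above all at the start sites of developmental regulators outside the lineage where they act. The complex reads the histone tail around the lysine it methylates, and R26 is the residue next to that lysine. In progenitor cells the mark is known for holding genes of other lineages off, while expressed mesenchymal genes lack it. In the H3WT lists these markers read as follows. The starts of Myod1, Pax6, Neurog1 and Sox1, which are regulators of muscle and neural fates, lay in regions called in both H3WT lists (4 of 4), and none of the 6 mesenchymal markers (Col1a1, Col1a2, Pdgfrb, Twist1, Prrx1 and Thy1) had a start in any consensus region.

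Polycomb marks are best known at CpG islands, and the windows below are printed to show how many CpG dinucleotides (CG) lay at the summits of the strongest members. Each is the 300 bases around the summit of the strongest peak, plus strand, from the RefSeq genome of GRCm38 (the build called mm10), with every CG in capitals. The first 3 are the members whose weakest mutant list had the highest signal, and the fourth is the strongest member with no peak in H3R8C.
Enho and Dnaic1 region, chr4:41629026-41629325: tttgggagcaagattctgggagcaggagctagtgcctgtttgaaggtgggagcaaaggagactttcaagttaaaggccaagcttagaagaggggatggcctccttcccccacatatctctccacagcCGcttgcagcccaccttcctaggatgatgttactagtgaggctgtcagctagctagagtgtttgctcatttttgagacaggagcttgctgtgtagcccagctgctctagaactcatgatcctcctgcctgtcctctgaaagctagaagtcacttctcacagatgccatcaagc
Sult1c1 region, chr17:53989976-53990275: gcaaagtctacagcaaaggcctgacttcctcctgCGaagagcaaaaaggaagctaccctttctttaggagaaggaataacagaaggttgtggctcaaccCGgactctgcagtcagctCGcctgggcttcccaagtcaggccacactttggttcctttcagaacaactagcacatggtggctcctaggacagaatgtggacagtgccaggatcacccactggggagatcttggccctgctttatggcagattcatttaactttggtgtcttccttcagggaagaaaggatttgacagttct
Intergenic region 173 kb from the start of Mcph1, chr8:18403476-18403775: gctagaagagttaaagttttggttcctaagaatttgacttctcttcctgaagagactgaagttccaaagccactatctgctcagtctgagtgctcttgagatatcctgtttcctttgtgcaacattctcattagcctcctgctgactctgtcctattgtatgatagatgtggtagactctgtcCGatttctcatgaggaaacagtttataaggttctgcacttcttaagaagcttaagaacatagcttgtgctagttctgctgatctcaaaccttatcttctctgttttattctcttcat
Intergenic region 34.4 kb from the start of Prlr, chr15:10138701-10139000: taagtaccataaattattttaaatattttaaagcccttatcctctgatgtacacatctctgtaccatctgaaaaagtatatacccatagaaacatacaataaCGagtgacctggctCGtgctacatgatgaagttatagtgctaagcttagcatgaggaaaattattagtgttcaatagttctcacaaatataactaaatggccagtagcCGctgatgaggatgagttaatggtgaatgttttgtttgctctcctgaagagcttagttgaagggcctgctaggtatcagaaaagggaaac
The windows held 1, 3, 1 and 3 CG, in that order. The whole regions differed more. The Enho and Dnaic1 region had 17.7 CG per kb and 53.5% GC, while the Sult1c1 region had 5.34 CG per kb, that near Mcph1 6.63 and that near Prlr 5.25, against a median of 8.42 over all consensus regions. Over all 353 members the median was 2 CG per window, the same as over all 20900 consensus regions, and at least 1 CG was found in 88.1% of the members' windows and in 87.2% of all windows. The letters CANNTG, which read the same on both strands and cover the E-box bound by basic helix-loop-helix factors such as MyoD, were found in 86.4% of the members' windows (305 of 353) and in 80.2% of all windows. Median GC content of the whole regions was 42.4% in members and 43.0% in all consensus regions.

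Few members lay on the start of a protein-coding gene, and the genes of those that did were mixed in their promoters. A start (within 1 kb) of 47 protein-coding genes fell in a member, and RefSeq promoters, 250 bases before to 50 after the start, were matched for 41 of them. Where a gene had more than 1 promoter, the one with the most CG was taken, which need not lie in the member. The median over the 41 genes was 8 CG, against 11 for the 2760 matched genes with a start in any consensus region and 15 for 16522 protein-coding genes. At least 20 CG were present in 31.7% of these promoters (13 of 41), in 32.4% over consensus regions and in 40.4% of all. Some of the 13, such as those of Map7 (55 CG) and Ctnna3 (39 CG), did not overlap a member. Matched promoters of 22 genes overlapped a member themselves, with 0 CG (Gpx2) to 52 CG (Strbp). One with few CG and the one with the most are printed, with CG in capitals and on the strand of the gene (GRCm38.p6). Sult1c1, which codes for a cytosolic sulfotransferase, had 4 CG in its promoter. Strbp, which codes for an RNA-binding protein of spermatids, had 52.
Sult1c1 promoter, chr17:53990582-53990881, minus strand: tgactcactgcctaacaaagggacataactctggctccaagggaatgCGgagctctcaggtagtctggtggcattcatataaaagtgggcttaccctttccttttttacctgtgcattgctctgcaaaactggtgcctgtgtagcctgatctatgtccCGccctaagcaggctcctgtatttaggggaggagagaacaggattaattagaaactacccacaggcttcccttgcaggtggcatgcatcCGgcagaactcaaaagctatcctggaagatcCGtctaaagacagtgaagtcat
Strbp promoter, chr2:37703296-37703595, minus strand: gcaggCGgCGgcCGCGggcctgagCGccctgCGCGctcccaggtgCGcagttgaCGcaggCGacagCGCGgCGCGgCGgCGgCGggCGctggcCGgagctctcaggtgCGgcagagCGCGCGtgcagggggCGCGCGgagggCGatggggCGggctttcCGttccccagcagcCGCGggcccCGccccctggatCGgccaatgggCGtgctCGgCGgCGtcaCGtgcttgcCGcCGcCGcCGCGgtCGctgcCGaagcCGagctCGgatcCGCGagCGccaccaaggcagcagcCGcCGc

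The members were weak to intermediate regions. Signal is the total coverage of the peaks in a region, divided in each list by the median over the 5589 regions called in all 8 lists, so that a value of 1 is a typical constitutive H3K27me3 region and a region without a peak is listed at 0. The lowest values a list could hold were 0.146 and 0.148 in H3WT, 0.153 and 0.177 in H3R2C, 0.125 and 0.132 in H3R8C, and 0.136 and 0.195 in H3R26C (the list of replicates 1 and 2 first, then replicate 3, here and below). Median scaled signal over the 353 members was 0.385 and 0.301 in H3R2C and 0.307 and 0.287 in H3R26C. The medians over the consensus regions called in the same lists were 0.479, 0.489, 0.431 and 0.523. Taking for each member the lowest of its 4 mutant values, 334 of 353 exceeded the higher H3WT level, 70 exceeded it more than 2 times, 29 more than 3 times and 3 more than 5 times. An absent H3WT peak is a signal under the call level of that list and does not show that the mark was absent.

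**Figure D1:**
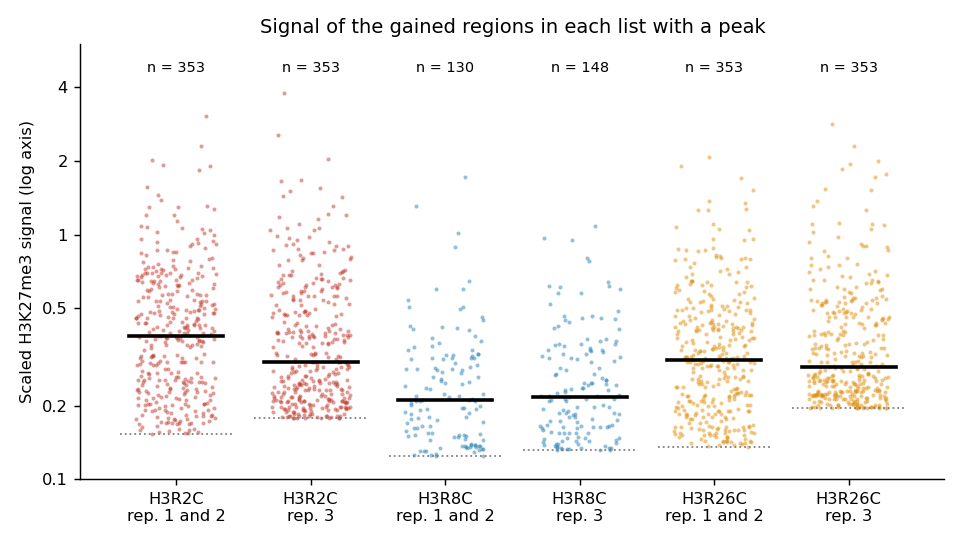
Scaled H3K27me3 signal (log axis) of the members in each mutant list where they had a peak, 1 point per region, with the median as a black bar and the lowest value the list could hold as a dotted line. The points crowd just above the dotted lines, and the H3R8C lists hold 130 and 148 of the 353 members.

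Around the limit of the rule, members and non-members had nearly the same values. The members at the starts of 1700019D03Rik and Rgs17, a regulator of G-protein signalling, each had at least 1 mutant list in which the signal equalled the lowest of that list. On the other side, a region near Tyw5 (chr1:57426601-57433700) and one in Mybpc1 (chr10:88544251-88547950) had peaks in all 4 mutant lists and were left out for an H3WT peak in 1 list, with scaled signals of 0.146 and 0.148, the lowest possible there. In all, 527 regions had peaks in all 4 mutant lists and in 1 of 2 H3WT lists, and 1016 had no H3WT peak and 3 of 4 mutant lists. With either H3WT list left out, 614 or 619 regions met the rule, and with H3R2C replicate 3 or H3R26C replicate 3 left out, 710 or 863.

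How well the pattern recurred was measured with lists that took no part in choosing. When the rule was applied to the lists of replicates 1 and 2 alone, 2616 regions had a peak in H3R2C and H3R26C and none in H3WT. In the lists of replicate 3, 53.0% of these had a peak in H3R2C, 43.8% in H3R26C, 39.8% in H3R8C and 29.5% in H3WT. The 14313 other regions without an H3WT peak had one in 20.9%, 14.1%, 19.8% and 12.8%, respectively. The full pattern came back in 366 regions (14.0%) and arose in 1.25% of the others. Choosing from the replicate 3 lists gave 1088 regions. In the lists of replicates 1 and 2, 82.8% of those had a peak in H3R2C, 80.1% in H3R26C, 44.7% in H3R8C and 39.4% in H3WT, against 45.0%, 38.6%, 25.1% and 21.2% of 13410 others. Here 415 (38.1%) kept the full pattern, against 10.8% of the others. In both directions the chosen regions were called more often than the others in every genotype, H3WT included, and the share was highest in H3R2C and next in H3R26C. The others lacked a peak in H3R2C or H3R26C in the choosing lists, so the choice itself favours lower shares there. Among the others, too, H3R2C had the highest share in both directions (20.9% and 45.0%). The order of genotypes is therefore not particular to the chosen regions.

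At the strongest members, ranked by the signal the rule used, total signal passed 1, the value of a typical constitutive region, in each H3R2C and H3R26C list. Total signal sums coverage over a region, so it can grow with width, and the part of width was not tested. The highest was an 18.8-kb region at chr4:41621851-41640600 that spans the whole of Enho, which codes for the secreted peptide adropin, and the 3′ part of Dnaic1, an axonemal dynein chain of motile cilia, with the starts of its short transcripts. Its scaled signal was 3.04 and 3.80 in H3R2C, 0.244 and 0.142 in H3R8C, and 1.52 and 2.29 in H3R26C. The H3R2C lists were above the H3R26C lists. The H3R8C lists were below both, and only that of replicate 3 was close to its lowest possible value. The nearest H3WT peak was 15.4 kb away. At the 12.6-kb Sult1c1 region (chr17:53985351-53997900) the signal was 1.57 and 1.11 in H3R2C, 0.211 and 0.147 in H3R8C, and 1.27 and 1.54 in H3R26C, and the nearest H3WT peak was 62.9 kb away. Here the mutants H3R2C and H3R26C overlapped and both were above H3R8C.

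The widest member, 20.8 kb at chr8:18401101-18421900, lay between genes. Its signal was 1.83 and 0.862 in H3R2C, 0.647 and 0.953 in H3R8C, and 2.08 and 1.85 in H3R26C, so that H3R8C and H3R2C overlapped. An intergenic member 106 kb from the start of Fbxl7 (chr15:27001251-27009800) had 0.718 and 1.44 in H3R2C and 0.883 and 1.10 in H3R26C. It was only 1.20 kb from an H3WT peak, and H3R8C held it in 1 list, at 0.438. A start-site member on chromosome 10 that holds starts of the predicted genes Gm47628, Gm47630 and Gm4898 (chr10:100321651-100328650) had 0.884 and 0.789 in H3R2C, 0.418 and 0.422 in H3R8C, and 0.712 and 0.897 in H3R26C. The H3R8C lists agreed closely there and lay under all 4 others.

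The strongest members without any H3R8C peak had lowest mutant signals of 0.652, 0.632 and 0.585. These were under that of the chromosome 10 member above (0.712). The region 34.4 kb from the start of Prlr (chr15:10133901-10142850) had 0.654 and 0.841 in H3R2C and 1.07 and 0.652 in H3R26C. One 78.0 kb from the start of Evx1, the homeobox gene beside the HoxA cluster (chr6:52391501-52400200), had 0.632 and 0.710 in H3R2C and 0.649 and 0.974 in H3R26C. A 13.0-kb intergenic one near Btbd3 (chr2:138230301-138243300) had 0.696 and 0.585 in H3R2C and 0.871 and 0.684 in H3R26C. In these 3 the H3R2C and H3R26C values overlapped.

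H3R8C, a mutant of another arginine of the same tail, had the peak at about as many members as it lacked it. It had no peak at 170 members (48.2%, Wilson 95% interval 43.0 to 53.4%, for counting error only), a peak in 1 list at 88 (24.9%) and in both at 95 (26.9%). H3R8C lists took part in merging but not in the choice. Among the 1936 regions that both H3R2C lists held with no peak in H3WT or H3R26C, 87.7% had no H3R8C peak and 3.05% had one in both lists. Among the 1049 that both H3R26C lists held with no peak in H3WT or H3R2C, the shares were 70.6% and 12.6%. Among the 4891 other consensus regions without an H3WT peak they were 62.9% and 25.3%, and over all consensus regions 26.1% and 60.9%. The share held by both H3R8C lists at members was near that of the other consensus regions without an H3WT peak. It lay above those of the H3R2C and H3R26C regions without a peak in the other mutant and below that of all consensus regions. The consensus sets include regions kept because of their H3R8C peaks. Members differ from the H3R2C and H3R26C regions also in being called in 4 lists rather than 2. The part of this in the shares was not tested. Where both H3R8C lists held a member, the median of the mean H3R8C signal was 0.240, that of H3R2C 0.387 and that of H3R26C 0.368, and H3R8C was below both other means at 65 of 95. Over the consensus regions each list called, the H3R8C medians were also the lowest, 0.428 and 0.417 against 0.431 to 0.523. The share of consensus regions with H3R8C below both was not counted, so nothing is read from the 65. Members with a peak in both H3R8C lists, in 1 and in none had median widths of 6.05, 5.43 and 5.48 kb and were intergenic in 44.2%, 52.3% and 37.6%. A protein-coding start lay in 13 of 95, 7 of 88 and 25 of 170, and the nearest H3WT peak was within 5 kb for 30.5%, 31.8% and 20.6%.

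The list of H3R17C replicates 2 and 3, which entered no rule, had a peak at 111 members (31.4%). It had one at 14.9% of the other consensus regions without an H3WT peak. It had one at 11.1% of the H3R2C regions without an H3R26C peak and at 9.63% of the H3R26C regions without an H3R2C peak. It also had one at 37.9% of the 528 regions lost in both mutants and at 60.0% of consensus regions. Its share was 48.4% of the members that both H3R8C lists held, 34.1% of those in 1 H3R8C list and 20.6% of those in none. The replicate 1 list of H3R17C had a peak at 2 members (0.567%) and at 1.502% of consensus regions. These are counts of regions in 1 list each, without a replicate.

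**Figure D2:**
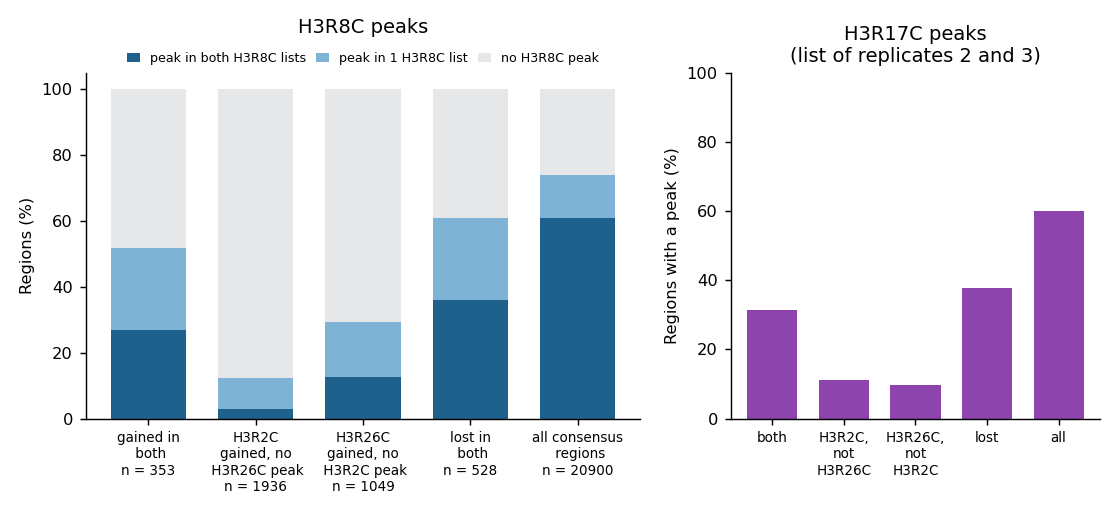
Percent of regions of each group with a peak in 0, 1 or 2 H3R8C lists (left) and in the H3R17C list of replicates 2 and 3 (right). Members ("gained in both") had an H3R8C peak in both lists at 26.9% and an H3R17C peak at 31.4%. Both shares were above those of the 1936 H3R2C and 1049 H3R26C regions with no peak in the other mutant or in H3WT. They were below those of consensus regions as a whole. Other consensus regions without an H3WT peak, not drawn, had 25.3% and 14.9%.

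The 3 members with the highest H3R8C signal had H3R8C values that overlapped or exceeded those of the other mutants. An intergenic 14.7-kb member 433 kb from the start of Tlr4 (chr4:67261151-67275800) had 1.71 and 1.08 in H3R8C, 0.320 and 0.238 in H3R2C, and 1.70 and 0.445 in H3R26C, so that H3R8C was above both H3R2C lists. At 33.2 kb from the start of Ptprz1, a receptor phosphatase of the nervous system (chr6:22826001-22842350), H3R8C had 1.31 and 0.465, H3R2C 0.573 and 0.900, and H3R26C 0.572 and 0.753. The nearest H3WT peak was 2.75 kb away. The third, 361 kb from the start of Celf4, had 1.01 and 0.967 in H3R8C, 1.07 and 0.190 in H3R2C, and 0.300 and 0.198 in H3R26C. No member of the 3 had an HA peak in any list.

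Members had a median width of 5.70 kb (0.600 to 20.8 kb), against 3.85 kb for the H3R2C regions without an H3R26C peak, 3.30 kb for the H3R26C regions without an H3R2C peak, 3.75 kb for regions lost in both and 5.95 kb for all consensus regions. Width was taken over the merged peaks of all 8 lists, so it depends on how many lists called a region, which the rule fixes in part. Next to the widest member stood an exonic 19.9-kb region of Ppp1r9a, which codes for the actin-binding protein neurabin (chr6:5083451-5103300). It had 1.92 and 1.04 in H3R2C, 0.403 and 0.532 in H3R26C and no H3R8C peak. The third, 19.2 kb wide and 75.3 kb from the start of Tmem65 (chr15:58729101-58748250), had 2.29 and 2.56 in H3R2C, 0.581 and 0.247 in H3R26C and no H3R8C peak. Both were higher in each H3R2C list than in each H3R26C list.

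By annotation, 152 members (43.1%) were intergenic, 75 (21.2%) lay within 1 kb of a start site, 65 (18.4%) were intronic and 61 (17.3%) exonic. Consensus regions were intergenic in 39.5%, at start sites in 29.4%, intronic in 16.3% and exonic in 14.9%. At start sites lay 18.2% of the H3R2C regions without an H3R26C peak, 20.6% of the H3R26C regions without an H3R2C peak and 16.9% of those lost in both. Starts of protein-coding genes were held by 12.7% of members (45 of 353) and 19.7% of consensus regions. The median distance to the nearest H3WT peak was 12.7 kb. It was at most 5 kb for 92 members (26.1%) and over 50 kb for 72 (20.4%). For the other consensus regions without an H3WT peak the median was 14.3 kb, with 27.8% within 5 kb and 26.8% over 50 kb.

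Starts of developmental regulators, the best known Polycomb targets, were counted next. Over all 21911 protein-coding genes, 47 (0.215%) had a start in a member, so that most lists of this size would hold 0 or 1 at the background share, and nothing is read from a 0. Of 39 Hox genes, 32 had a start in a region called in both H3WT lists and 0 in a member. None of 106 other homeobox genes, 44 forkhead, 16 T-box, 9 Pax, 19 Sox or 21 proneural basic helix-loop-helix genes had a start in a member either, while 69, 13, 9, 6, 8 and 16 of them, in that order, had one in regions called in both H3WT lists. A gene whose start already carried the mark in H3WT could not enter. The lists with a member gene were the Fgf, Bmp and Gdf ligands (1 of 43, with 9 in both H3WT lists) and the potassium, sodium and calcium channels (1 of 128, with 61). None was found among 37 Wnt ligands and receptors, 51 semaphorins, plexins and ephrins, 35 protocadherins and cadherins, 48 glutamate, GABA and glycine receptors, 361 solute carriers, 1418 olfactory and vomeronasal receptors, 49 keratins, 129 interleukins, chemokines and their receptors, 11 PRC2 subunits, 10 lineage genes of the study or 6 housekeeping genes.

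The 2 member genes of these lists were Fgf23, the bone-derived hormone of phosphate balance, and Kcnip4, a subunit that modulates voltage-gated potassium channels. The Fgf23 region (chr6:127073351-127080450) had 0.255 and 0.875 in H3R2C, 0.262 and 0.245 in H3R8C and 0.140 and 0.213 in H3R26C. Its H3R26C values were near the lowest possible. The Kcnip4 start region (chr5:48484251-48491450) had 0.398 and 0.397 in H3R2C, 0.197 and 0.537 in H3R26C and no H3R8C peak.

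Other genes with a start in a member, named after their values were seen, came from scattered tissues. Ttn, which codes for the sarcomeric protein titin (chr2:76980451-76993100), had 0.939 and 0.380 in H3R2C and 0.431 and 0.635 in H3R26C, which overlap. Prlr, the prolactin receptor (chr15:10214351-10227650), had 0.840 and 0.754 in H3R2C and 0.604 and 0.353 in H3R26C. Lef1, a transcription factor of the Wnt pathway (chr3:131107901-131115400), had 0.585 and 0.382 in H3R2C and 0.205 and 0.253 in H3R26C. The last 2 were higher in both H3R2C lists, but neither passed the test between H3R2C and H3R26C (limma, adjusted p = 0.170 and 0.0651). None of the 3 had an H3R8C peak.

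About 1 in 3 members had another within 100 kb. There were 52 such groups with 123 members (34.8%), of which 42 were pairs, and the largest held 5. The share was 41.9% among the 528 regions lost in both mutants, 63.0% among the 1936 H3R2C regions without an H3R26C peak and 54.2% among the 1049 H3R26C regions without an H3R2C peak. These sets are larger, which by itself brings regions nearer to each other. On chromosome 5, 5 members stretched over 223 kb of Kcnip4 (chr5:48484251-48707250) with no region called in either H3WT list between them. The strongest of them, 14.1 kb wide, had 1.296 and 1.65 in H3R2C, 1.26 and 0.434 in H3R26C and 0.162 in 1 H3R8C list. The lowest mutant signal of the 5 ran from 0.197 to 0.491. On chromosome 4, 5 members over 86.5 kb (chr4:33136151-33222650) covered parts of Gabrr1, which codes for a rho subunit of GABA receptors, Pm20d2 and Srsf12, between 3 regions with an H3WT peak. Lowest signals there ran from 0.213 to 0.409. In each group, 3 of 5 had no H3R8C peak. The third group of 5, over 218 kb of chromosome 8 (chr8:18315351-18532900), held the widest member, no H3WT region and lowest signals of 0.217 to 0.862. Neighbouring members may be parts of 1 domain, and their number is not a number of independent events.

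Members were spread unevenly over the chromosomes. Chromosome 15 held 39 (11.0%), against 6.88% of the 5244 consensus regions without an H3WT peak, followed by chromosome 4 with 32 (9.07% against 5.80%), chromosome 8 with 31 (8.78% against 5.70%) and chromosome 10 with 30 (8.50% against 5.84%). At the other end, chromosome 7 held 9 (2.55% against 5.15%). The X chromosome held 1 member (0.283%), although it had 4.65% of the consensus regions without an H3WT peak and 11.3% of all consensus regions. These shares are descriptions, and the number of chromosome copies in each line was not examined.

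**Figure D3:**
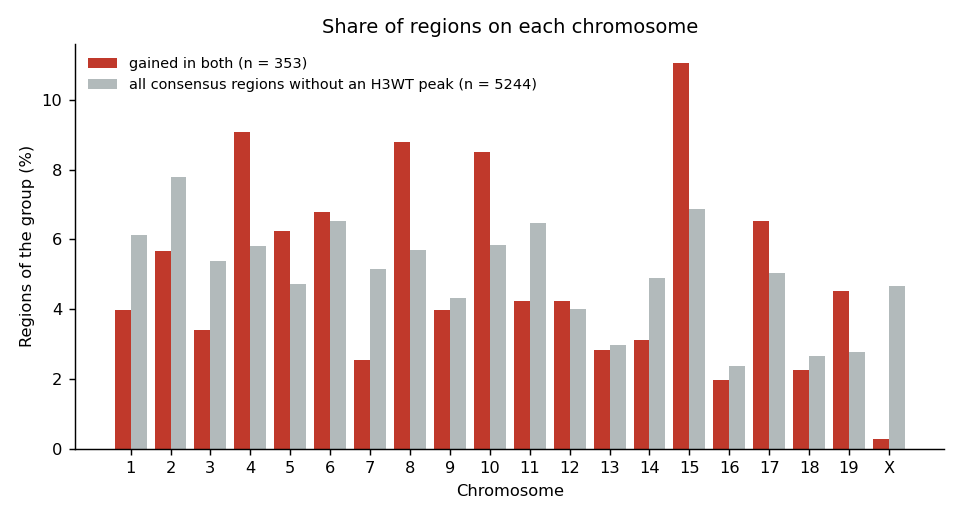
Percent of the 353 members and of the 5244 consensus regions without an H3WT peak on each chromosome. Chromosome 15 has the tallest bar for members (11.0%), and X holds 1 member.

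Whether H3R2C and H3R26C marked these regions to the same degree was asked with limma on log2(scaled signal + 0.25) over all 20900 consensus regions, with 2 lists per genotype. At the members 30 were higher in H3R2C and 11 lower at an adjusted p under 0.05 (8.50% and 3.12%), against 22.7% higher and 18.9% lower over all consensus regions. Together 11.6% of members and 41.6% of all consensus regions passed. Members had to be called in both mutants and consensus regions did not, which limits how far the members' values could differ. Both H3WT lists are 0 at every member by the rule, and both H3R8C lists are 0 at 170, so these lists add no spread to the pooled estimate and the p-values at members are too small. In a fit of the 4 lists of H3R2C and H3R26C alone, 21 members were higher in H3R2C and 4 lower, against 20.6% and 17.8% of the 19627 regions tested. That fit was added after seeing the data. The median log2 difference of H3R2C minus H3R26C was 0.06 at members and 0.00 over all regions. Between the 2 lists of a genotype the median absolute log2 ratio of scaled signal at members was 0.41 in H3R2C and 0.56 in H3R26C, and for the 4 pairs of an H3R2C list with an H3R26C list it was 0.56 to 0.59. Both H3R2C lists were above both H3R26C lists at 102 members (28.9%, against 33.6% of consensus regions), and the opposite held at 66 (18.7% against 30%). With the maximum signal in place of the total, 2 members were higher and 1 lower, and with unscaled signal 5 and 0. Shares of all tested regions are not given for these settings.

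**Figure D4:**
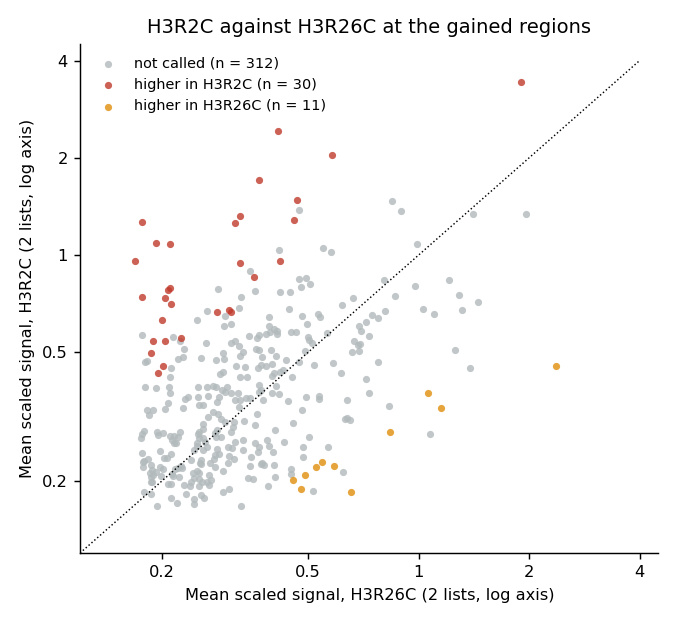
Mean scaled signal of each member in H3R2C against H3R26C (2 lists each, both axes logarithmic), with members that passed limma at an adjusted p under 0.05 in colour and equality as a dotted line. The 30 members higher in H3R2C and 11 higher in H3R26C lie off the diagonal, and the other 312 surround it.

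Higher in H3R2C with the lowest adjusted p was the region 75.3 kb from Tmem65 described above, with a log2 difference of 2.06 ± 0.30 (SE; limma adjusted p = 0.00270). A 10.3-kb region 5.51 kb from the start of Reg4 (chr3:98206401-98216650), a secreted lectin of the intestine, had 1.02 and 0.896 in H3R2C and 0.139 and 0.198 in H3R26C, a log2 difference of 1.53 ± 0.24 (SE; limma adjusted p = 0.00376). An intronic region of Rorb, an orphan nuclear receptor of retina and brain (chr19:19057201-19070050), had 1.3003 and 0.873 against 0.158 and 0.227, a log2 difference of 1.58 ± 0.27 (SE; limma adjusted p = 0.00483). In the Reg4 and Rorb regions H3R26C barely passed its call level. In the fit of H3R2C and H3R26C alone, these 3 differences were 2.13, 1.64 and 1.68, with limma adjusted p of 0.0222, 0.0170 and 0.0202. With the maximum signal they were 0.79, 0.42 and 0.57, and none passed.

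Lower in H3R2C was an 18.7-kb region in an intron of a noncoding transcript of the chemokine gene Ccl1 (chr11:82225401-82244050). It had 0.585 and 0.326 in H3R2C, 0.361 and 0.522 in H3R8C and 1.90 and 2.83 in H3R26C, a log2 difference of -1.89 ± 0.29 (SE; limma adjusted p = 0.00316). H3R2C and H3R8C overlapped and H3R26C stood above both. With unscaled signal it no longer passed (-1.52, limma adjusted p = 0.0821). A region 1.06 kb from the start of Zdhhc2, a palmitoyltransferase (chr8:40416651-40422750), had 0.211 and 0.232 in H3R2C and 0.559 and 0.491 in H3R26C, a log2 difference of -0.72 ± 0.18 (SE; limma adjusted p = 0.0233). An exonic region 1.21 kb from the start of Reln, which codes for the secreted guidance protein reelin (chr5:22003251-22009050), had 0.249 and 0.209 against 0.572 and 0.523, a log2 difference of -0.74 ± 0.19 (SE; limma adjusted p = 0.0235). The last 2 no longer passed with a pseudocount of 0.05, with unscaled signal, with the maximum signal or with H3R17C added. In the fit of H3R2C and H3R26C alone, the Ccl1, Zdhhc2 and Reln differences were -1.97, -0.78 and -0.80. Their limma adjusted p were 0.0229, 0.0374 and 0.0348.

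Among the 45 members at a protein-coding start, 8 (17.8%) passed this test, 7 of them higher in H3R2C, against 11.6% of all members and 51.4% of the consensus regions at such a start. The test is that of all 8 lists, with p-values too small at members. The 8 members were named after their values were seen. Besides the Enho and Dnaic1 region (0.78 ± 0.24, SE; limma adjusted p = 0.0419), these were the starts of Strbp, of Th, the rate-limiting enzyme of catecholamine synthesis, of Gsdmc2, a gasdermin, of Sele, the endothelial adhesion molecule E-selectin, of Gpx2, a glutathione peroxidase, and of the predicted gene Gm7697. The Th region (chr7:142895601-142903600) had 1.27 and 1.31 in H3R2C and 0.275 and 0.644 in H3R26C. Strbp (chr2:37703201-37711750) had 0.865 and 1.06 against 0.406 and 0.431. Both were higher in each H3R2C list. The one lower in H3R2C was C8a, a component of the complement attack complex (chr4:104875801-104880650), with 0.192 and 0.186 in H3R2C and 0.344 and 0.612 in H3R26C.

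The tagged histone itself was read from the anti-HA lists. An HA peak lay on 7.37% and 8.50% of members in H3WT, 16.4% and 18.1% in H3R2C, 6.80% and 4.82% in H3R8C, 11.0% and 9.07% in H3R17C, and 8.78% and 4.82% in H3R26C. Only the H3R2C lists stood apart, above the 8 others, and H3R26C overlapped H3WT and H3R8C. The same libraries had HA peaks on 14.7% and 16.2%, 19.2% and 21.9%, 14.3% and 11.6%, 16.1% and 15.1%, and 12.6% and 12.8% of all consensus regions, so that every list covered a smaller share of members than of consensus regions. The ratio of the 2 shares was 0.858 and 0.827 in H3R2C and 0.376 to 0.696 in the other 8 lists. At the other consensus regions without an H3WT peak, the H3R2C lists had HA peaks on 15.1% and 17.6%, slightly under members. The other 8 lists had larger shares there than at members. H3R2C HA peaks lay on 23.3% and 28.9% of the H3R2C regions without an H3R26C peak. They lay on 5.43% and 4.77% of the H3R26C regions without an H3R2C peak. Over H3R2C and H3R26C together the share of members was 12.04 ± 6.30% (SD, n = 4), against 6.87 ± 1.54% over H3R8C and H3WT (SD, n = 4), and the 2 means differed by less than the spread (exact permutation test of 70 arrangements, two-sided, p = 0.229, the smallest possible being 0.0286). No HA peak of any of the 10 lists lay on 209 members (59.2%), against 52.7% of consensus regions.

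**Figure D5:**
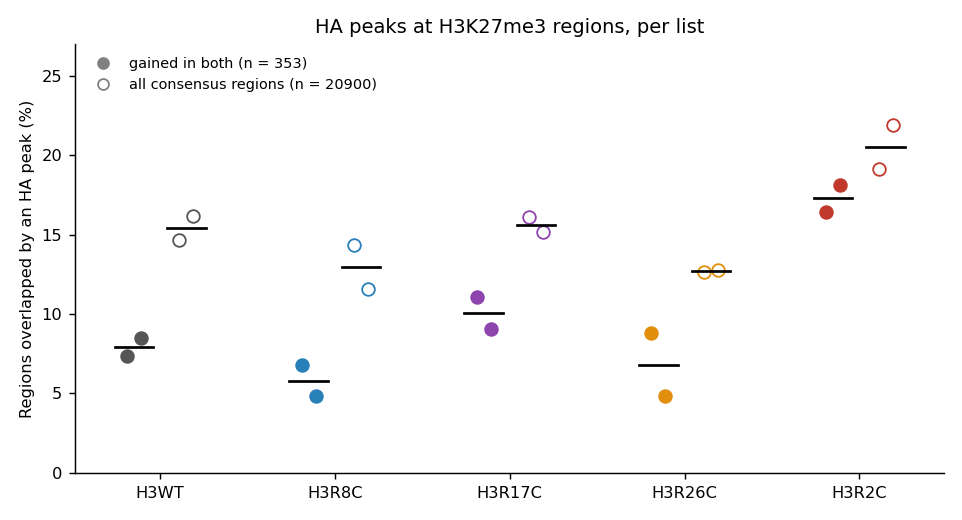
Percent of members (filled) and of all consensus regions (open) overlapped by an HA peak, 1 point per independent list and a bar at the mean of 2. The H3R2C lists are the highest in both sets (16.4% and 18.1% of members), and every list is lower at members than at consensus regions.

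The HA peaks of the lists were not alike. In H3WT the shared list of replicates 1 and 2 numbered 15344 peaks of 10.7 kb at the median and that of replicate 3 numbered 37907 of 2.65 kb, whereas the mutant lists had 46398 to 52083 peaks with medians of 0.800 to 1.60 kb. HA peaks covered at least 50% of the region at 6.80% and 3.68% of members in H3WT, but at 0.850% and 3.12% in H3R2C and 0.283% and 0.567% in H3R26C, which turned the difference of H3R2C and H3R26C from H3WT and H3R8C to -1.84 percentage points (exact permutation p = 0.286). With equal numbers of top peaks it was 0.00 (exact permutation p = 1.00). The part of peak width and number in the HA shares was otherwise not tested.

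Region by region, 28 members had an HA peak in both H3R2C lists, 12 in both of H3WT, 10 in both of H3R8C, 14 in both of H3R17C and 9 in both of H3R26C. An HA peak in both H3R2C lists and in no H3WT list was found at 16 members (4.53%, against 3% of consensus regions), among them the Sult1c1 region, the widest member and the region near Tmem65. The same for H3R26C was found at 1 (0.283% against 0.632%). In limma over the 8960 consensus regions with an HA peak in at least 1 of 8 lists, 127 of them members, 0 members passed an adjusted p of 0.05 for H3R2C against H3WT (0% of all regions tested) and 0 for H3R26C against H3WT (0%). At an unadjusted p under 0.05, H3R2C was higher at 19 and lower at 3 members, and H3R26C higher at 2 and lower at 6. The maximum HA signal gave 9 members higher and 2 lower in H3R2C and 0 in H3R26C. Without H3R2C replicates 1 and 2, the H3R2C calls at members rose to 37, and without H3R2C replicate 3 to 34. The share of all tested regions is not given for the unadjusted p, the maximum signal or a list left out. Nothing is read from those counts. Within the set, HA peaks of H3R2C lay on 21.1% and 25.3% of members held by both H3R8C lists. They lay on 10.2% and 14.8% of those in 1 H3R8C list, and on 17.1% and 15.9% of those without an H3R8C peak. The share was also highest with both H3R8C lists in H3R8C (11.6% and 8.42%), in H3R26C (12.6% and 7.37%) and in replicate 3 of H3WT and H3R17C. In the lists of replicates 1 and 2 of H3WT and H3R17C it was not.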

How the data were processed

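CUT&RUN reads were, per the methods of the study, aligned to mm10 with Rsubread, and the authors called peaks per sample with SEACR 1.3 (stringent, normalised, threshold 0.01). The deposited lists give the total and the maximum signal (coverage) of each peak as whole numbers that were not scaled to depth. Lists of 30 samples (anti-H3K27me3 and anti-HA) were used, grouped by their titles, and IgG and anti-H3K4me3 were not analysed here. Read totals were not used here, so precision rests on the spread between independent lists. The numbers of peaks ran from 20077 to 24598 in the H3K27me3 lists used to merge regions.

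Peaks overlapping by at least 1 bp counted as called. limma 3.58.1 (lmFit, eBayes with trend, Benjamini-Hochberg) was run under R 4.3.3 on log2(scaled signal + 0.25), and exact permutation tests in scipy 1.17.1. A region without a peak took a fixed value of 0. In the HA fit, regions without an HA peak in any library had no spread and were left out, a change to the planned fit made after seeing the data. The choice of regions was checked on a few made-up peaks. The limma fits were run on simulated regions with signal in every list. For H3K27me3 no member is such a region, so the simulation did not cover the values of 0 at members. Starts came from GENCODE (release M21), and sequences and promoters from RefSeq.

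Members and gene lists were chosen with earlier results of these data known. Named regions were the 6 with the highest lowest signal over the mutant lists, the 3 widest, the 3 highest in H3R8C and the 3 highest without an H3R8C peak, those at starts of listed genes, the 3 lowest adjusted p in each direction of each test, the largest groups of neighbours, and 2 regions on either side of the rule. The alternatives were other peak thresholds, overlaps, merging, pseudocounts (0.05 and 1), scalings, signals, trends and start windows, all 3 labelled replicates, H3R17C, the replicate block and leaving out each list. Added after seeing the data were the HA fit with regions without HA kept, H3R17C with its list of replicates 2 and 3 alone, and the lists of H3R2C and H3R26C alone.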

Additional observations from a re-analysis of the deposited data

Results flagged for a closer look

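H3R2C was compared directly with H3R26C by limma, a contrast in which H3WT cancels out. At an adjusted p under 0.05, 30 members were higher in H3R2C and 11 lower (8.50% and 3.12%). Over all consensus regions the shares were 22.7% and 18.9%. As said above, the H3WT values of 0 make the p-values at members too small. The fit of the lists of H3R2C and H3R26C alone gave 21 and 4 members, against 20.6% and 17.8% of the regions tested. The log2 difference of H3R2C minus H3R26C was 2.06 at the region near Tmem65, 1.53 near Reg4, 1.58 in Rorb, -1.89 in the Ccl1 transcript, -0.72 near Zdhhc2 and -0.74 in Reln.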

How the results depend on the processing

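The number of members depended on the calling. It was 205 with the upper 50% of peaks (36 of the 353 overlapped), 114 where a peak had to cover 50% of the region (43 overlapped), 2533 by a majority of the 3 labelled replicates, and 353 to 863 with 1 list left out, where a genotype needs fewer calls (614 and 619 without an H3WT list, 353 and 354 without an H3R8C list, 710 without H3R2C replicate 3 and 863 without H3R26C replicate 3). Equal numbers of top peaks gave 237 and merging within 1 kb gave 332. The share without an H3R8C peak was 38.6% with 50% coverage and 34.7% to 63.8% with 1 list left out (58.4% and 63.8% without an H3R8C list, 37.0% and 34.7% without an H3WT list, 53.7% and 57.9% without an H3R26C list).

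Members higher in H3R2C than in H3R26C numbered 12 with a pseudocount of 0.05, 5 with unscaled signal, 2 with maximum signal, 48 by eBayes without trend and 20 to 37 with 1 list left out, and those lower numbered 2, 0, 1, 15 and 4 to 22 (4 without either H3R8C list, 22 without either H3R26C list, 7 without either H3WT list or H3R2C replicates 1 and 2). With H3R17C added they were 39 and 7, with its list of replicates 2 and 3 alone 31 and 12, and with the lists of H3R2C and H3R26C alone 21 and 4. The numbers were not taken to pair the lists (correlations of same-numbered deviations of 0.0014 to 0.158), and the replicate block gave 20 higher and 9 lower, and 0 HA calls. No member is called in every library of that fit, so that filter gave no value. Except for the fit of H3R2C and H3R26C alone, shares of all tested regions are not given beside these alternative counts. Nothing is read from the counts about members as against other regions.

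The HA difference reversed to -1.84 points with 50% coverage. HA calls at members in H3R2C were 11 with maximum signal and 0 to 37 with 1 list left out (37 and 34 without an H3R2C list, 5 and 13 without an H3WT list), and in H3R26C 0 to 9 (9 without H3WT replicate 3 or H3R26C replicate 3, 5 without replicates 1 and 2 of either, 2 and 3 without an H3R2C list). Keeping regions without HA gave 0 in both. Shares of all tested regions are not given beside these HA counts, so nothing is read from them about members. A list left alone in its genotype is assumed to vary like the others. Members at a start site were 27.2% within 2 kb, 17.6% at the start itself and 12.7% for protein-coding genes. The cause of these shifts was not tested. With 2 lists per genotype and read totals not used here, a region without a peak cannot be told from one just under the call level.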
